A study of Mus musculus with 8 samples.

Results

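Cholesterol and fatty acid synthesis was described through 38 genes, taken by name from the 35852 genes of the count table through their identifiers in the GENCODE M21 annotation of GRCm38. They comprise 7 genes of the mevalonate pathway, 11 from squalene to cholesterol, 5 that control the SREBP transcription factors, 3 of cholesterol trafficking and storage, 3 that supply acetyl-CoA and NADPH, 2 that assemble fatty acids and 7 that desaturate or elongate them. The cells were bEnd3, an established line of mouse brain endothelial cells transformed with polyoma middle T antigen, seeded in serum-containing DMEM the day before. Of the 8 samples, 4 received 5 µM corticosterone, the main glucocorticoid hormone of mice, for 24 h and 4 are labelled as culture medium. The protocol text attached to those 4 mentions corticosterone as well, and a vehicle is not mentioned. Poly(A) RNA was sequenced as directional libraries. Whether the replicates came from separate cultures is not stated, so the p-values rest on a spread between libraries that may be technical.

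Acetyl-CoA is the shared starting material of both routes. The mevalonate pathway joins acetyl-CoA units into isoprenoids and squalene, which is cyclised and trimmed to cholesterol, while acetyl-CoA carboxylase and fatty acid synthase build saturated fatty acids that desaturases and elongases modify. When cholesterol in the endoplasmic reticulum is low, Scap carries SREBP proteins to the Golgi for cleavage, and the released fragments switch on most genes of both routes; Insig proteins hold Scap back when sterols are plentiful. Brain endothelial cells form the blood-brain barrier, across which little cholesterol passes, so the brain makes nearly all of its own.

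Total estimated counts were 27.7 to 33.2 M (M is 1e+06 counts) in corticosterone libraries and 19.75 to 46.2 M in medium libraries. The 38 genes together took 0.315% to 0.330% of the TMM-scaled library with corticosterone and 0.310% to 0.317% in medium, ranges that overlap. All 10 listed endothelial markers were measured, with summed levels of 8690 to 9080 CPM (counts per 1e+06 of the TMM-scaled library) with corticosterone and 8100 to 8530 CPM in medium. These ranges did not overlap, but the markers split. Of the 10, 5 were higher and 3 lower in edgeR, beside 19.5% and 20.6% of all genes tested. Fibroblast markers, 5 genes of which Pdgfra is the most abundant, summed to 5.75 to 6.69 CPM with corticosterone and 19.9 to 21.9 CPM in medium. The 9 pericyte and smooth muscle markers summed to 3.99 to 6.01 CPM with corticosterone and 5.58 to 6.77 CPM in medium. For 5 adipocyte markers the sums were 0.130 to 0.521 CPM with corticosterone and 0.205 to 0.571 CPM in medium, with Cidec and Lep at 0 counts in all 8 libraries. The 5 leukocyte markers summed to 16.8 to 18.4 CPM with corticosterone and 16.9 to 18.9 CPM in medium, nearly all of it Cd68. The 7 neural markers summed to 1.17 to 1.78 CPM with corticosterone and 1.42 to 1.92 CPM in medium, with Syt1 and Aqp4 at 0, and the 4 epithelial markers to at most 0.108 CPM with corticosterone and 0.258 CPM in medium. Most of the fibroblast sum was Pdgfra, at 4.73 to 5.02 CPM with corticosterone and 17.1 to 19.6 CPM in medium. The pericyte and smooth muscle sums overlapped, and of 4 such markers tested 2 were lower. Myh11 went the other way, at 0.334 to 0.728 CPM with corticosterone and 0.184 to 0.251 CPM in medium. The part of the fibroblast and pericyte markers in the results that follow was not tested. In bulk RNA fewer cells of a type and less RNA per cell cannot be told apart. Corticosterone replicates 1 and 2 stand apart in how transcript lengths entered the quantification. Their effective lengths equal the transcript length plus 1, whereas in the other 6 libraries the median is 340.4 to 360.3 nt below the transcript length. Gene counts are therefore the main measure, and results that change in the 6 libraries are given with both values.

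Corticosterone moved genes of these routes in both directions and mostly by little. All 38 genes passed the filter on low counts, and 16 of them (42.1%) had an adjusted p under 0.05 in edgeR's quasi-likelihood test, beside 40.1% of the 13272 genes tested. Of the 38, 10 rose, beside 19.5% of all genes, and 6 fell, beside 20.6% of all genes. The share called was thus near that of the whole transcriptome. Acss2 and Scd1 were the 2 that were called and differed by at least 1.5-fold, a criterion met by 7.87% of all genes. The libraries of the groups did not overlap for 17 of the 38 genes, beside 40% of all genes tested. The median log2 fold change, corticosterone over medium, was 0.049 for the 38 genes and -0.0046 for all genes, and the median absolute log2 fold change was 0.103 against 0.139. Without corticosterone replicates 1 and 2, 7 rose and 4 fell, beside 36.4% of all genes called in that fit, and Elovl1, Elovl5, Sc5d, Soat1 and Srebf1 lost their calls.

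**Figure D1:**
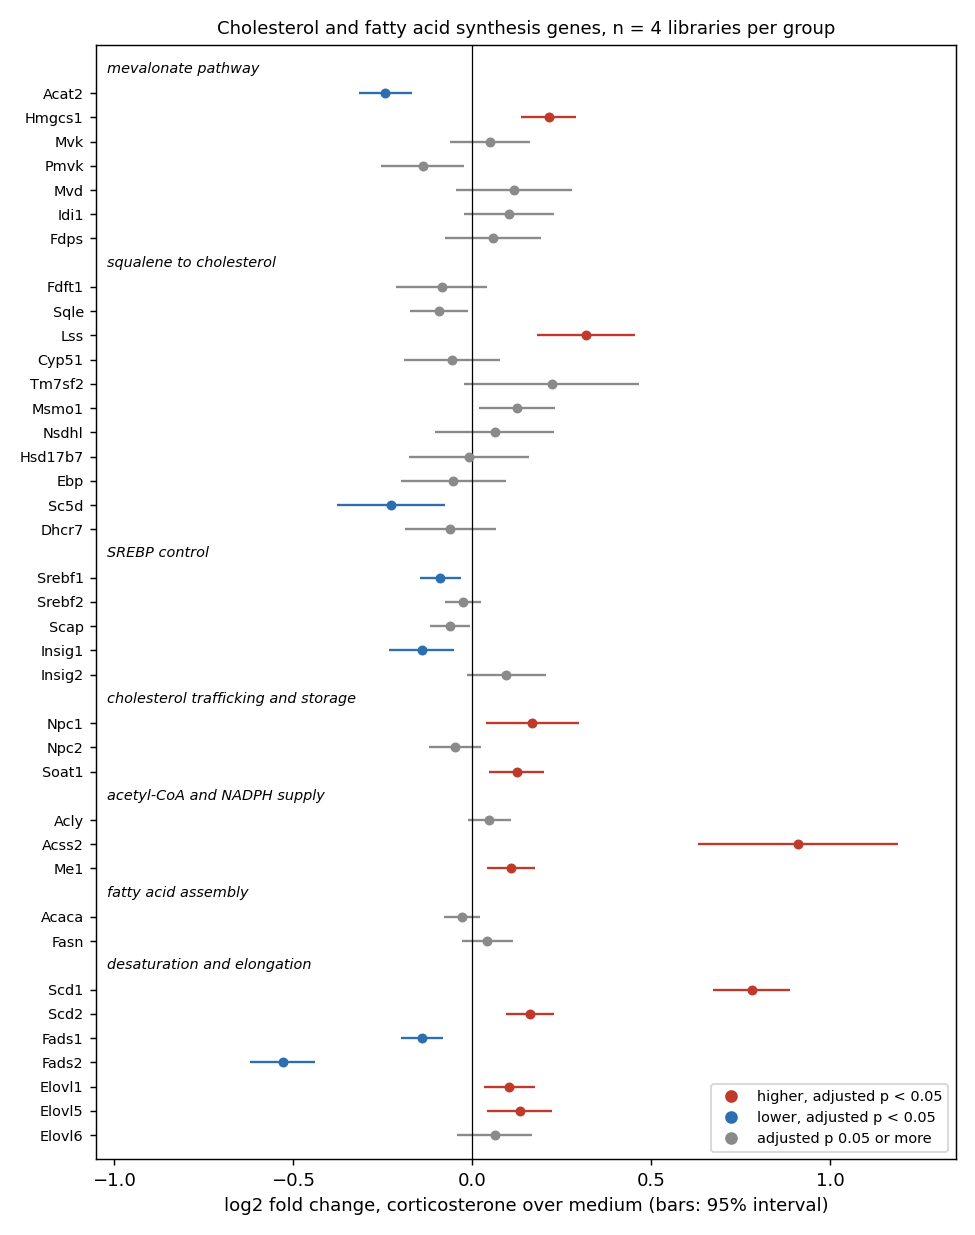
Log2 fold change of each of the 38 genes, corticosterone over medium (x axis), by role (y axis), with 95% intervals from edgeR (n = 4 libraries per group; red, higher; blue, lower; grey, not called). Acss2 at 0.91 and Scd1 at 0.78 lie to the right, Fads2 at -0.53 to the left, and most others lie close to 0. Scd2, Elovl1, Elovl5, Me1 and Npc1 take negative values on recomputed TPM. With limma-trend on length-corrected levels, an alternative chosen after seeing the data, they were positive but not called.

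By role, 4 of the 18 enzymes that make sterols were called and 8 of the 12 genes that make, modify or fuel fatty acids, beside 40.1% of all genes; the difference between these shares was not tested. Among the sterol enzymes 2 rose and 2 fell (median log2 fold change 0.020). Among the fatty acid genes 6 rose and 2 fell (median 0.083), of which the rises of Elovl1 and Elovl5 lost their calls in the 6 libraries, and those of Scd2, Elovl1, Elovl5 and Me1 take negative values on recomputed TPM. Of the 5 genes of SREBP control, 2 fell, and of the 3 of trafficking and storage, 2 rose.

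Promoter sequences are shown for 4 of the genes, since they stand for the patterns described next: Acss2 and Fads2 as the largest rise and the largest fall, Hmgcs1 as the mevalonate enzyme that rose, and Insig1 as the brake on SREBP that fell. Each runs 5′ to 3′ from 250 bases before to 50 bases after the gene's start in RefSeq on GRCm38.p6: Hmgcs1 at chr13:119690101-119690400, plus strand; Acss2 at chr2:155517793-155518092, plus strand; Fads2 at chr19:10101454-10101753, minus strand; Insig1 at chr5:28071162-28071461, plus strand. Capitals mark, on either strand, TCACNCCAC (a form of the sterol regulatory element), CCAAT (the NF-Y box, read ATTGG on the other strand), CACGTG (an E-box) and AGAACA (one arm of a glucocorticoid response element, read TGTTCT on the other strand).
Hmgcs1: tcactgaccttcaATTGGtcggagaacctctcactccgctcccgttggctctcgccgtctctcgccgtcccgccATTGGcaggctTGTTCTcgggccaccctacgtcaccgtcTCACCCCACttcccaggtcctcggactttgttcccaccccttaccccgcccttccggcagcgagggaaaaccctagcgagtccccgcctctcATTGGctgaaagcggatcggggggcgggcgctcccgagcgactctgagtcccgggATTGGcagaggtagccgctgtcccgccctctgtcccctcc
Acss2: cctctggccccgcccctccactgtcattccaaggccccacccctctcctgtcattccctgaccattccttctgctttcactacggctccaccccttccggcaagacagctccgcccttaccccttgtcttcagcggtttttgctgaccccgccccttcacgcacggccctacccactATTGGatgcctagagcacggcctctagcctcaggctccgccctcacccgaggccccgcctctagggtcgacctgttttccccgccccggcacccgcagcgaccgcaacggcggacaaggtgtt
Fads2: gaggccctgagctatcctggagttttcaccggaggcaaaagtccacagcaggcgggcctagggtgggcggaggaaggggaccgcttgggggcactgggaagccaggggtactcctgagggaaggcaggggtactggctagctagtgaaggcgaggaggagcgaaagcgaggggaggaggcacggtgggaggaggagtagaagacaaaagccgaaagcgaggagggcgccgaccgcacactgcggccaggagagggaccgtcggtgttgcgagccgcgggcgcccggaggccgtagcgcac
Insig1: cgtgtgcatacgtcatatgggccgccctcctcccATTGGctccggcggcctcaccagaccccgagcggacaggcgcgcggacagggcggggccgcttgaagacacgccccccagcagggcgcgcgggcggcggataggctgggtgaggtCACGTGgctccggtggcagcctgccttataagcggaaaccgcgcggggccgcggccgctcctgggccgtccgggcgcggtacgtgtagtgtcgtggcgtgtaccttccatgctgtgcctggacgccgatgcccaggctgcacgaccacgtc
The Hmgcs1 window holds TCACCCCAC, 4 CCAAT boxes and 1 AGAACA arm; that of Acss2 holds 1 CCAAT box, that of Insig1 1 CCAAT box and 1 E-box, and that of Fads2 none of these 4 motifs. The main Fads2 transcript, Fads2-201, starts at chr19:10101746 in GENCODE, so nearly all of the Fads2 window lies inside that transcript. The sequence before that start was thus hardly searched, and the lack of motifs does not cover it. RefSeq windows matched 31 of the 38 genes by symbol, in 41 windows. Scd1, Scd2, Sqle, Fdps, Fdft1, Npc1 and Fads1 had no window, so the motif counts do not cover them. TCACNCCAC was in 1 of the 41 (2.44%), beside 1.24% of all 32851 windows of the same length. CCAAT was in 27 (65.9%), beside 37.4% of all windows, and CACGTG in 7 (17.1%), beside 7.15%. GGGCGG, the GC box read by Sp1 and left in lower case, was in 31 (75.6%), beside 35.7%. AGAACA was in 8 (19.5%), beside 19.0%. Neither AGAACA and TGTTCT 3 bases apart (0.00913% of all windows) nor 2 copies of AGGTCA 4 bases apart, the liver X receptor element (0.0152%), was in a window of these genes. A match is a run of letters, not a shown binding site, and genes with several windows count once per window.

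In the mevalonate pathway Hmgcs1 rose and Acat2 fell. Hmgcs1 (ENSMUSG00000093930.2, chr13:119690379-119708260) makes HMG-CoA, the precursor of mevalonate. It had 48.6, 49.7, 48.0 and 52.2 CPM with corticosterone, against 44.1, 41.7, 43.1 and 42.4 CPM in medium. Every corticosterone library lay above every medium library, with a fold of 1.16 (log2 fold change 0.21 ± 0.035 SE, edgeR adjusted p = 0.000343). Acat2 (chr17:12942890-12960747), the cytosolic thiolase that joins 2 acetyl-CoA units, had 42.7, 41.0, 41.9 and 42.4 CPM with corticosterone, against 50, 49.9, 47.1 and 51.6 CPM in medium. The groups did not overlap, and Acat2 fell to 0.845 of medium (log2 fold change -0.24 ± 0.034 SE, edgeR adjusted p = 9.97e-05). Acat2 shares 43.7% of its 31-base words with Acat3, so its counts are uncertain. The size of that uncertainty was not measured. The 5 other enzymes, Mvk and Pmvk (the kinases that phosphorylate mevalonate), Mvd (its decarboxylase), Idi1 (isopentenyl diphosphate isomerase) and Fdps (farnesyl diphosphate synthase), were not called, with log2 fold changes between -0.14 for Pmvk and 0.12 for Mvd. Pmvk was nearest the threshold, at 10.8, 11.6, 10.5 and 10.9 CPM with corticosterone and 11.9, 12.1, 11.9 and 12.4 CPM in medium (edgeR adjusted p = 0.0558), and its groups did not overlap.

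Between squalene and cholesterol, Lss rose and Sc5d fell. Lss (chr10:76531588-76557138) closes the ring of lanosterol, the first sterol. It had 12.9, 13.3, 13.2 and 13.6 CPM with corticosterone, against 10.1, 12.0, 10.4 and 10.3 CPM in medium, 1.246-fold (log2 fold change 0.32 ± 0.063 SE, edgeR adjusted p = 0.00144). Medium replicate 2 lay closest to the corticosterone libraries but still below them. Sc5d (chr9:42251595-42264256), a desaturase late in the route, had 14.8, 13.7, 17.0 and 16.4 CPM with corticosterone, against 19.4, 17.2, 17.6 and 18.2 CPM in medium. It fell to 0.854 of medium (log2 fold change -0.23 ± 0.069 SE, edgeR adjusted p = 0.019). The lowest Sc5d values came from corticosterone replicates 1 and 2: without them the log2 fold change was -0.12 (edgeR adjusted p = 0.17), and without medium replicate 1 it was -0.19 (edgeR adjusted p = 0.069). The other 9 enzymes were not called: Fdft1 (squalene synthase), Sqle (squalene epoxidase), Cyp51, Tm7sf2, Msmo1, Nsdhl, Hsd17b7, Ebp and Dhcr7, which remove methyl groups or shift and reduce double bonds. Their log2 fold changes ran from -0.093 for Sqle to 0.22 for Tm7sf2. Msmo1 had 15.1 to 15.7 CPM with corticosterone and 13.4 to 14.8 CPM in medium, ranges that did not overlap (edgeR adjusted p = 0.0596). Tm7sf2, the lowest of the 38 in CPM, had 3.17 ± 0.17 CPM with corticosterone and 2.72 ± 0.157 CPM in medium (SD, n = 4), and its fold of 1.17 has a 95% interval of 0.985 to 1.38.

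Of the genes that control SREBP, Insig1 and Srebf1 fell by small amounts. Insig1 (chr5:28071363-28078662), whose protein keeps Scap in the endoplasmic reticulum and whose gene is itself switched on by SREBP, had 31.6, 32.5, 30.9 and 31.5 CPM with corticosterone, against 35.0, 36.8, 32.7 and 34.8 CPM in medium. The groups did not overlap, and it fell to 0.907 of medium (log2 fold change -0.14 ± 0.042 SE, edgeR adjusted p = 0.017), a call lost without medium replicate 2 (-0.11, edgeR adjusted p = 0.0615). Srebf1 (chr11:60199089-60222581), which encodes SREBP-1, the form tied most to fatty acid genes, had 92.5, 90.8, 93.4 and 90.01 CPM with corticosterone, against 96.2, 94.7, 99.8 and 99.5 CPM in medium. It fell to 0.940 of medium (log2 fold change -0.089 ± 0.026 SE, edgeR adjusted p = 0.0156). That call was lost without corticosterone replicate 4 (-0.075, edgeR adjusted p = 0.0541) and in the 6 libraries (-0.083, edgeR adjusted p = 0.0764). Srebf2, which encodes SREBP-2, the form tied most to sterol genes, was not called, at 88.8, 87.2, 87.0 and 86.1 CPM with corticosterone and 89.3, 87.7, 87.7 and 90.5 CPM in medium; the 95% interval of its fold is 0.949 to 1.02. Scap (62.8 ± 0.648 CPM with corticosterone, 65.5 ± 1.32 CPM in medium, SD, n = 4) was not called either (edgeR adjusted p = 0.0747), though its groups did not overlap. Insig2, the second Insig gene, had 29.3, 28.9, 28.2 and 26.8 CPM with corticosterone, against 26.4, 28.8, 25.0 and 25.7 CPM in medium, and was not called (edgeR adjusted p = 0.164).

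Ratios within a library do not depend on how libraries are scaled, and 4 pairs were compared. The count ratio of Insig1 to Insig2 was 1.08, 1.12, 1.10 and 1.18 with corticosterone, against 1.33, 1.28, 1.31 and 1.36 in medium. It was lower in 4 of 4 corticosterone libraries than in any medium library, at 0.849 of the medium ratio (log2 difference -0.24; two-sided exact permutation test, p = 0.02857, the smallest that 4 against 4 can give; 0.03809 adjusted over the 4 ratios). By levels per length over all 8 libraries the log2 difference was larger, at -0.66, with the same exact p. That size rests in part on corticosterone replicate 2, where Insig2 stood at 54.2 per length. Insig2 stood at 24.5, 24.3 and 23.2 in corticosterone replicates 1, 3 and 4, and at 19.1 to 21.7 in medium. Srebf1 to Srebf2 was 1.04, 1.04, 1.07 and 1.05 with corticosterone and 1.08, 1.08, 1.14 and 1.10 in medium, 0.957 of the medium ratio with the same exact p, but by levels per length the log2 difference was -0.040 (exact permutation p = 0.5714). Npc1 to Npc2 was 0.320, 0.284, 0.369 and 0.341 with corticosterone and 0.301, 0.283, 0.272 and 0.273 in medium. These overlap (log2 difference 0.21, two-sided exact permutation test, p = 0.05714). The log2 difference was 0.33 in the 6 libraries and -0.025 by levels per length over all 8 libraries. By that measure Npc2 stood at 57.2 and 83.5 in corticosterone replicates 1 and 2, against 47.9 and 48.3 in replicates 3 and 4. In medium Npc2 stood at 48.4 to 53.2.

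In cholesterol trafficking and storage, Soat1 and Npc1 rose and Npc2 was not called. Soat1 (chr1:156424525-156474331) esterifies cholesterol for storage in lipid droplets. It had 86.8, 87.9, 88.6 and 82.6 CPM with corticosterone, against 83.8, 77.8, 75.2 and 80.4 CPM in medium. Corticosterone replicate 4 lay below medium replicate 1, and the fold was 1.09 (log2 fold change 0.12 ± 0.035 SE, edgeR adjusted p = 0.0133), beside a log2 fold change of 0.11 in the 6 libraries (edgeR adjusted p = 0.0582). Npc1 and Npc2 hand cholesterol out of the lysosome, and mutations of either cause Niemann-Pick disease type C. Npc1 had 44.9, 42.3, 51.0 and 47.3 CPM with corticosterone, against 43.2, 42.7, 37.97 and 41.2 CPM in medium, a fold of 1.12 with overlapping groups (log2 fold change 0.17 ± 0.059 SE, edgeR adjusted p = 0.0428), and it takes a value of -0.095 with limma-trend on recomputed TPM. The Npc1 call was lost when any 1 of 5 libraries was left out (corticosterone 3 or 4, medium 2, 3 or 4), with log2 fold changes of 0.12 to 0.18 and an edgeR adjusted p of 0.0585 to 0.108. Without corticosterone replicate 2 the log2 fold change was 0.21 (edgeR adjusted p = 0.00766), and in the 6 libraries it was 0.25 (edgeR adjusted p = 0.000719). Npc2 had 140.5, 148.7, 138.1 and 138.9 CPM with corticosterone and 143.7, 151.2, 139.6 and 150.7 CPM in medium, and the 95% interval of its fold is 0.920 to 1.02.

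Of the genes that feed fatty acid synthesis, Acss2 showed the largest fold of the 38. Acss2 (ENSMUSG00000027605.18, chr2:155517948-155585724) turns acetate into acetyl-CoA in the cytosol and nucleus and is a known SREBP target. It had 6.05, 5.58, 6.50 and 4.48 CPM with corticosterone, against 2.84, 3.13, 2.71 and 3.35 CPM in medium. All 4 corticosterone libraries were above all 4 medium libraries, with replicate 4 the nearest, and the fold was 1.88 (95% interval 1.55 to 2.28; log2 fold change 0.91 ± 0.128 SE, edgeR adjusted p = 9.72e-05). It rests on few reads, 124 counts or more in corticosterone libraries and 54 or more in medium libraries. Me1, malic enzyme, which yields NADPH, had 110.5, 111, 116 and 112 CPM with corticosterone, against 101, 102, 109 and 106 CPM in medium, 1.08-fold with groups that did not overlap (log2 fold change 0.11 ± 0.031 SE, edgeR adjusted p = 0.0138), and takes a value of -0.090 with limma-trend on recomputed TPM. Me1 shares 28.6% of its 31-base words with the predicted gene Gm7049. Acly, which splits citrate into cytosolic acetyl-CoA, was not called, at 337, 338, 323 and 316 CPM with corticosterone and 313, 328, 316 and 316 CPM in medium (fold 1.03, 95% interval 0.991 to 1.08).

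The 2 enzymes that assemble fatty acids were not called. Fasn, fatty acid synthase, had 719, 724, 669.8 and 669 CPM with corticosterone and 657, 675, 704 and 666 CPM in medium, with overlapping groups and a fold of 1.03 (95% interval 0.980 to 1.08). Acaca, acetyl-CoA carboxylase 1, which makes malonyl-CoA, had 151, 145, 147 and 146 CPM with corticosterone and 147, 152, 151 and 150 CPM in medium, a fold of 0.980 (95% interval 0.947 to 1.01). Over the 22 genes that were not called, the 95% intervals of the fold ran from 0.838 at the lowest to 1.38 at the highest, that of Tm7sf2. Counts of Acaca (31.7% of its 31-base words shared with Gm5182), Fdps (24.6% with Gm43738), Fdft1 (19.5% with Ctsb), Idi1 (18.4% with Gm13502) and Tm7sf2 (10.7% with Vps51) are uncertain too. The size of that uncertainty was not measured. Each percentage is for the gene that shares most, and Fdft1 has 64.71% of its words in no other gene.

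Of the 7 desaturases and elongases, 4 were higher and 2 lower, beside 19.5% of all genes higher and 20.6% lower; the rises of Elovl1 and Elovl5 lost their calls in the 6 libraries, and those of Scd2, Elovl1 and Elovl5 take negative values on recomputed TPM. Scd1 (ENSMUSG00000037071.3, chr19:44394455-44407879) and Scd2 (chr19:44293674-44306864) put the first double bond into saturated fatty acids to make oleate and palmitoleate. Scd1 had 29.9, 29.2, 29.2 and 27.6 CPM with corticosterone, against 16.8, 17.9, 15.6 and 17.2 CPM in medium. The groups were far apart relative to their spread, and the fold was 1.72 (95% interval 1.59 to 1.85; log2 fold change 0.78 ± 0.049 SE, edgeR adjusted p = 7.17e-08). With limma-trend on recomputed TPM it was 0.30, without a call (limma adjusted p = 0.239). Scd2 had 696, 712, 659 and 668 CPM with corticosterone, against 606, 640, 592 and 607 CPM in medium, 1.12-fold with no overlap (log2 fold change 0.16 ± 0.031 SE, edgeR adjusted p = 0.00113), and takes a value of -0.092 with limma-trend on recomputed TPM. The count ratio of Scd1 to Scd2 was 0.0429, 0.0411, 0.0443 and 0.0413 with corticosterone, against 0.0277, 0.0280, 0.0264 and 0.0283 in medium. It was higher in 4 of 4 corticosterone libraries, 1.54 times the medium ratio (log2 difference 0.62; two-sided exact permutation test, p = 0.02857; 0.03809 adjusted over the 4 ratios). Scd1, the less abundant of the pair, thus changed by more than Scd2. Scd1 and Scd2 share 5.8% and 4.8% of their 31-base words with Scd3.

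Both front-end desaturases of polyunsaturated fatty acids fell. Fads2 (ENSMUSG00000024665.8, chr19:10062765-10101746), the delta-6 desaturase, had 35.0, 34.6, 31.3 and 32.3 CPM with corticosterone, against 49.7, 47.5, 47.1 and 47.8 CPM in medium. The highest corticosterone library lay well below the lowest medium library, and Fads2 fell to 0.693 of medium (95% interval 0.651 to 0.738; log2 fold change -0.53 ± 0.042 SE, edgeR adjusted p = 5.73e-07). Fads1 (chr19:10182888-10196877), the delta-5 desaturase that follows it, had 81.1, 84.9, 81.5 and 79.1 CPM with corticosterone, against 88.9, 89.8, 92.0 and 89.5 CPM in medium. It fell to 0.907 of medium without overlap (log2 fold change -0.14 ± 0.027 SE, edgeR adjusted p = 0.00101).

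Elovl1 and Elovl5 rose slightly, and their calls rested on few libraries. Elovl1, which extends very long saturated chains, had 71.0, 70.4, 66.6 and 64.7 CPM with corticosterone, against 64.2, 64.1, 62.2 and 63.2 CPM in medium (fold 1.07, log2 fold change 0.10 ± 0.033 SE, edgeR adjusted p = 0.0245). Its highest values were corticosterone replicates 1 and 2; in the 6 libraries the log2 fold change was 0.052 (edgeR adjusted p = 0.29), and leaving out corticosterone 1 or 2 or medium 3 or 4 alone also ended the call. Elovl5, which extends polyunsaturated chains, had 102, 98.0, 99.6 and 91.9 CPM with corticosterone, against 92.2, 91.6, 82.2 and 91.3 CPM in medium, with overlapping groups (fold 1.10, log2 fold change 0.13 ± 0.042 SE, edgeR adjusted p = 0.0257), beside a log2 fold change of 0.10 in the 6 libraries (edgeR adjusted p = 0.112). Its call was lost without medium replicate 3, the lowest library (0.094, edgeR adjusted p = 0.0525), and without corticosterone 1, 2 or 3. Both take negative values with limma-trend on recomputed TPM, -0.14 for Elovl1 and -0.045 for Elovl5. Elovl6, which extends palmitate, was not called, at 26.1 to 28.3 CPM with corticosterone and 24.7 to 28.1 CPM in medium.

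**Figure D2:**
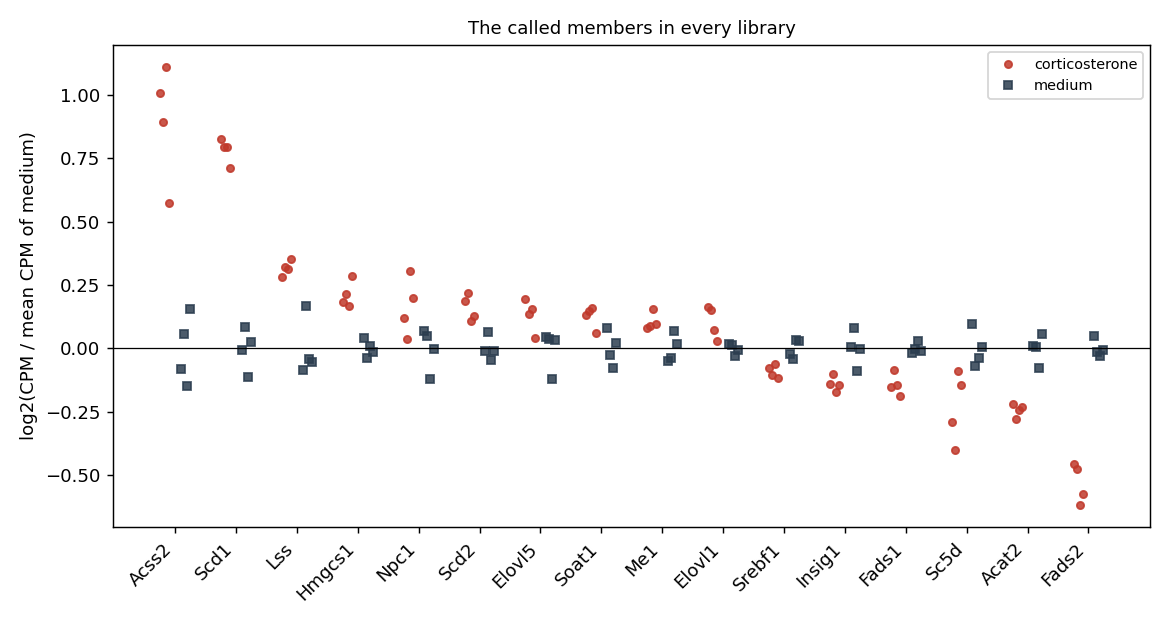
The 16 called genes in every library, as log2 of CPM over the mean CPM of medium (y axis), with corticosterone libraries (red circles) left of medium libraries (dark squares), n = 4 each. Acss2, Scd1 and Fads2 lie clear of medium, while Npc1, Soat1 and Elovl5 overlap it. Scd2, Elovl1, Elovl5, Me1 and Npc1 take negative values on recomputed TPM. With limma-trend on length-corrected levels, an alternative chosen after seeing the data, they were positive but not called.

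The scale matters for changes this small. With limma-trend on TPM recomputed with 1 effective length per transcript (pseudocount 1), the median log2 fold change of all genes was -0.152 and 31.6% of called genes were higher, beside 48.6% in the count fit. Acss2 (log2 fold change 0.60, limma adjusted p = 0.00828) and Fads2 (-0.72, limma adjusted p = 0.00776) kept their calls there. Scd1 stayed positive without a call, as did Hmgcs1 (0.27, limma adjusted p = 0.29) and Lss (0.26, limma adjusted p = 0.363). The 5 rises with negative values there, Scd2, Elovl1, Elovl5, Me1 and Npc1, all lay above that shifted median. With library totals alone as the scale, 39.4% of called genes were higher, and 5 of the 38 rose and 10 fell.

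Levels can be compared between genes per length, as counts per kb of effective length and per 1e+06 of the scaled library, and here in the 6 libraries with like effective lengths. Scd2 stood highest, at 129 and 132 with corticosterone (replicates 3 and 4) and 120 ± 3.8 in medium (SD, n = 4). Acly (88.9 and 87.1 with corticosterone, 86.8 ± 1.40 in medium) and Fasn (87.9 and 87.3 with corticosterone, 86.1 ± 2.10 in medium) came next and overlapped one another. With Scd2 they made up 30.4% of the summed medium level of the 38 genes. Elovl1 followed at 78.7 and 77.2 with corticosterone and 74.6 ± 1.80 in medium. Fatty acid genes thus held the top places. By the medium mean the first sterol enzymes were Acat2 (22.7 and 22.9 with corticosterone, 27.2 ± 1.20 in medium) and Mvk (25.9 and 27.1 with corticosterone, 25.5 ± 0.57 in medium), which overlapped in medium, with Mvk above Acat2 in both corticosterone libraries. The lowest was Acss2, at 2.71 and 2.37 with corticosterone and 1.27 ± 0.110 in medium, with Tm7sf2 and Lss just above it. The 2 genes with the largest rises were thus low ones: Scd1 stood at 6.99 and 6.91 with corticosterone and 4.49 ± 0.5 in medium. Fads2, with the largest fall, ranked 18 of the 38 by the medium mean, at 12.0 and 12.7 with corticosterone and 17.7 ± 0.75 in medium. Across the 38 genes the medium means spanned 94.5-fold, and 25 of the 37 neighbouring pairs in that order had overlapping medium libraries.

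**Figure D3:**
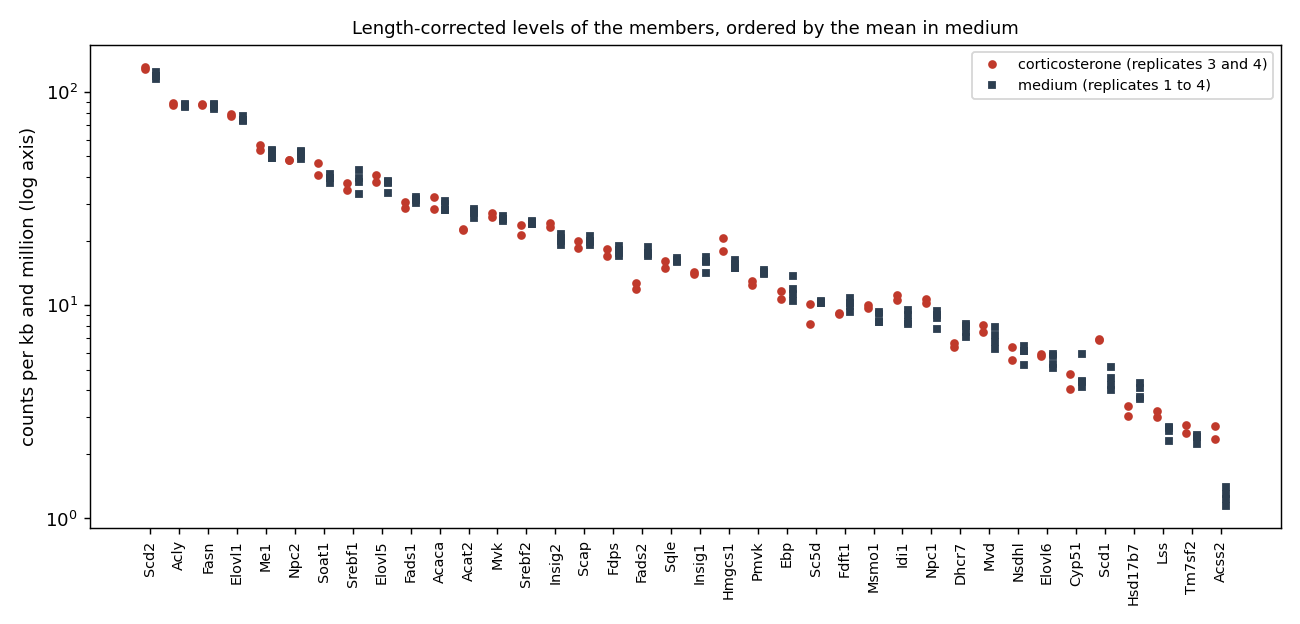
Length-corrected level of each gene in counts per kb and 1e+06 (log axis), ordered by the medium mean, with corticosterone replicates 3 and 4 (red circles) left of the 4 medium libraries (dark squares). Scd2, Acly and Fasn lead and Acss2 is lowest, spanning 94.5-fold in medium.

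At the transcript level, Scd1-201 and Fads2-201 moved with their genes. The deposited tables list 231 transcripts of the 38 genes, of which 100 were tested, and 2 were called in edgeR, beside 3.15% of all transcripts. Scd1-201, which carried 97.6% to 100% of the Scd1 counts in the 8 libraries, rose (log2 fold change 0.81, edgeR adjusted p = 0.00208). Fads2-201, with 97.7% to 100% of Fads2, fell (-0.53, edgeR adjusted p = 0.00672). With the replicate number as a block neither was called, at log2 fold changes of 0.81 and -0.53 (edgeR adjusted p = 0.0969 and 0.134). In the 6 libraries 112 were tested and 3 called, beside 5.24% of all transcripts, the third being Fads1-201 (-0.18, edgeR adjusted p = 0.0323). Corticosterone replicates 1 and 2 split counts among transcripts unlike the rest: the share of a gene's main transcript lay outside the range of the other 6 libraries for 28 of 38 genes in each, by over 10 percentage points for 13 and 11. Each of the other 6 libraries, set against the remaining 5, lay outside for 7 to 16 genes and by over 10 points for at most 1. Srebf1-201 held 17.3%, 65.4%, 76.0% and 76.8% of Srebf1 with corticosterone (replicates 1 to 4), against 75.9%, 81.0%, 76.5% and 73.3% in medium. Acly-201 held 0%, 57.8%, 45.6% and 43.9% with corticosterone, against 48.5%, 44.8%, 48.8% and 44.3% in medium. No change of isoform use was read from these tables.

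**Figure D4:**
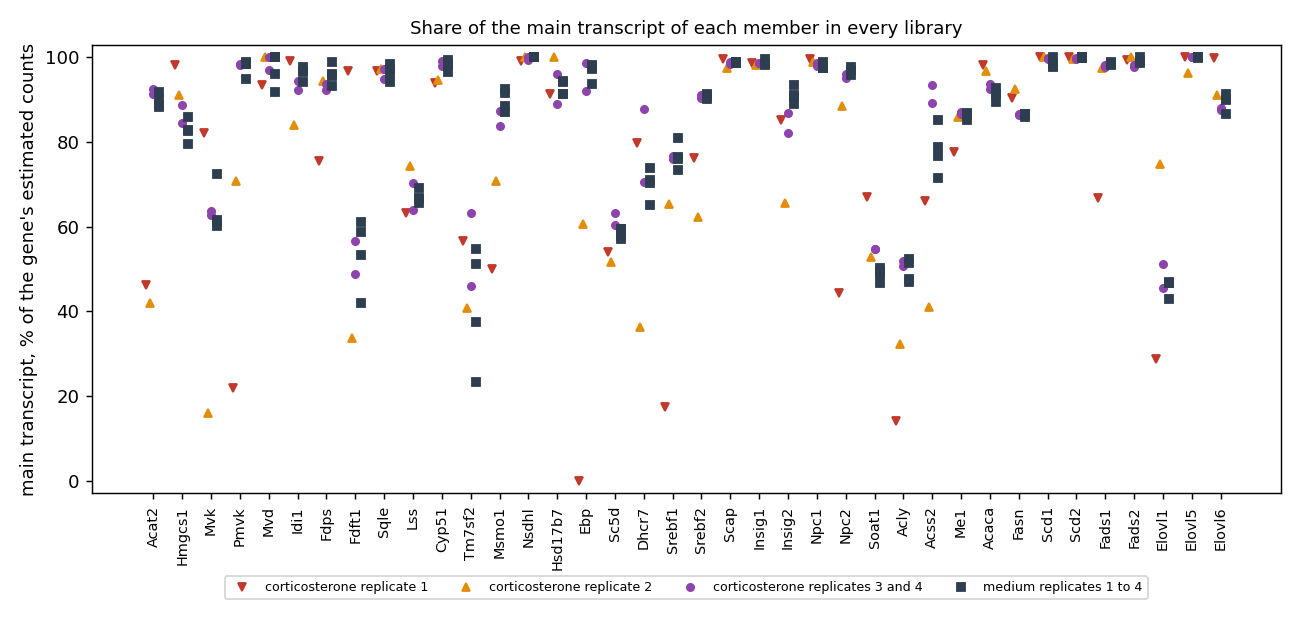
Share of each gene's estimated counts in its main transcript (y axis, %), for corticosterone replicate 1 (red triangles down), replicate 2 (orange triangles up), replicates 3 and 4 (purple circles) and medium replicates 1 to 4 (dark squares). Replicates 1 and 2 of corticosterone lie outside the other 6 libraries for 28 of 38 genes each, as for Srebf1 at 17.3%.

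Other genes of the same routes were described from 8 lists of 125 genes, of which 114 were tested. Among 10 other elongation and desaturation enzymes, 2 rose and 2 fell (40.0% called, beside 40.1% of all genes; median log2 fold change -0.048, beside -0.0046 for all genes). Elovl7, a further elongase, had 3.96, 4.32, 3.62 and 3.47 CPM with corticosterone, against 2.12, 1.999, 2.08 and 2.11 CPM in medium, 1.85-fold (edgeR adjusted p = 6.25e-05). Hacd1, a dehydratase of the elongation cycle, rose 1.254-fold (edgeR adjusted p = 0.0049), and its relative Hacd4 fell to 0.814 of medium (edgeR adjusted p = 2.49e-05). Fads3, the third gene of the Fads cluster, fell to 0.831 of medium (edgeR adjusted p = 8.19e-05), so the 3 Fads genes were all lower with corticosterone by counts, though Fads3 is positive with limma-trend on length-corrected levels (0.13).

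Among 12 other genes of fatty acid synthesis and its supply, 5 rose and 1 fell (50% called, beside 40.1% of all genes; median log2 fold change 0.086). Thrsp, or Spot 14, a nuclear protein known to promote lipogenic gene activity in liver, had 13.7, 14.2, 14.5 and 14.1 CPM with corticosterone, against 2.12, 2.43, 1.36 and 2.16 CPM in medium. The groups lay far apart, and the fold was 6.93 (log2 fold change 2.79 ± 0.133 SE, edgeR adjusted p = 1.07e-08). Mlx, the partner of the glucose-sensing factors Mondo and ChREBP, rose 1.33-fold (edgeR adjusted p = 6.21e-06). G6pdx, the first enzyme of the pentose phosphate route to NADPH, fell to 0.854 of medium (edgeR adjusted p = 0.000136). In 14 genes of the isoprenoid branches, 3 rose and 2 fell (35.7% called, again beside 40.1%; median -0.022). Nus1, a subunit of the enzyme that starts dolichol synthesis, had 669.7, 674, 658 and 674 CPM with corticosterone, against 444, 453, 455 and 457 CPM in medium, 1.48-fold (edgeR adjusted p = 5.05e-10). Zmpste24, the prelamin A protease, rose 1.29-fold (edgeR adjusted p = 3.67e-07), while Icmt, which methylates prenylated proteins, fell to 0.909 and Rabggta, a subunit of Rab geranylgeranyl transferase, to 0.868 of medium.

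Among 16 other genes of SREBP processing and turnover, 4 rose and 2 fell (37.5% called, beside 40.1% of all genes; median 0.058). The 2 falls became 1 with RLE scaling, with DESeq2, in the 6 libraries and with a term for the kind of effective length. They also became 1 without corticosterone replicate 1 or 3 or medium replicate 3 or 4. They became 0 with no filter, with the replicate number as a block and with limma-trend on recomputed TPM. The same held without corticosterone replicate 2 or 4 or medium replicate 2. Erlin1 and Erlin2, which form a scaffold in the endoplasmic reticulum membrane, rose 1.10-fold (edgeR adjusted p = 0.000912) and 1.11-fold (edgeR adjusted p = 0.000569). Rnf145, a ubiquitin ligase of that membrane, fell to 0.952 of medium (edgeR adjusted p = 0.0222). That call was lost without corticosterone replicate 2, 3 or 4 or medium replicate 2 (edgeR adjusted p = 0.0505 to 0.0704). It was also lost with no filter (edgeR adjusted p = 0.0845) and with the replicate number as a block (edgeR adjusted p = 0.0584). On recomputed TPM it was lost too (limma adjusted p = 0.126).

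**Figure D5:**
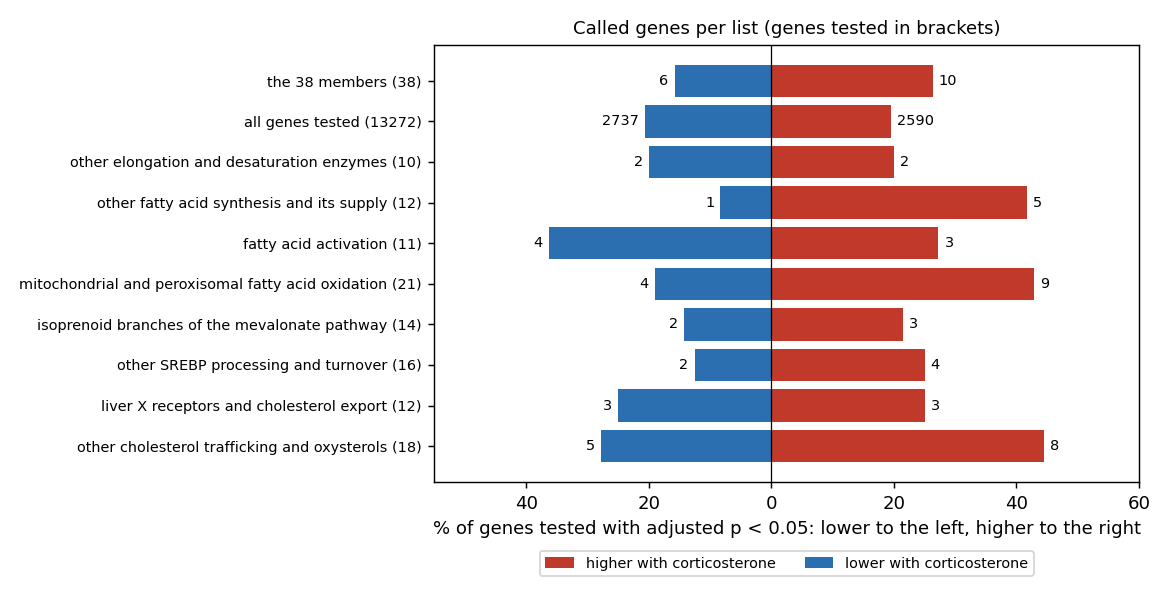
Share of tested genes called in edgeR (x axis, %), lower with corticosterone to the left in blue and higher to the right in red, for the 38 genes, all genes tested and the 8 lists, with the number of genes beside each bar. The 38 genes had 10 higher and 6 lower, against 2590 higher and 2737 lower of all 13272.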

How the data were processed

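RNA from 8 bEnd3 samples was compared, 4 with corticosterone and 4 in medium, grouped by title. The authors deposited a gene table of estimated counts, with no normalization, and per library a table of 119414 transcripts with estimated counts, effective lengths and TPM (abundance per 1e+06 transcripts, a column named in the file headers). The submitters' processing notes name bcl2fastq, kallisto 0.46.1, mm10 and GRCm38; the sources used here give neither the transcript index nor the strand setting. TPM divides by effective length, which equals the transcript length plus 1 in corticosterone replicates 1 and 2 alone, so deposited TPM was not compared between groups.

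After rounding, edgeR 4.0.16 (R 4.3.3) was run on the estimated counts (filterByExpr, TMM, robust quasi-likelihood F test, group as the single term), with Benjamini-Hochberg adjustment over all 13272 genes and a threshold of 0.05. The SE is the log2 fold change divided by the square root of F. DESeq2 1.42.0 and limma 3.58.1 served as alternatives. The method was also run on simulated counts with known changes. These held no difference in effective length between libraries, so they cannot show its effect on the results. Shared sequence is the share of 31-base words found in the named gene, the one that shares most. Transcript levels per length use 1 effective length per transcript, the mean of the 6 libraries.

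The 38 genes, the 8 lists and the tests were chosen with earlier results of these data known. All 38 are accounted for: called genes are named with values, as are the 6 uncalled genes with the highest CPM and those of SREBP control, and of each list the 2 rises and 2 falls of smallest p; other uncalled genes given values were chosen after these were seen. A few genes of these pathways are not reported here, though counts over the lists include any that the lists hold. Counts without molecular identifiers are not independent molecules.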

Additional observations from a re-analysis of the deposited data

Results flagged for a closer look

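In 2 of 76 sets of 4 libraries (each of the 38 genes in each group), 1 library lay far from the other 3 by Dixon's test; chance gives about 1 in 20, or 3.8 sets. Elovl5 had 82.2 CPM in medium replicate 3, against 91.3 to 92.2 CPM in the other medium libraries, and the Elovl5 call was lost without that library. Lss had 12.0 CPM in medium replicate 2, against 10.1 to 10.4 CPM in the other medium libraries, and stayed below the 12.9 CPM of the lowest corticosterone library.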

How the results depend on the processing

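Among the 38 genes, RLE scaling and DESeq2 kept the 16 calls. Over the 18 alternatives, Acss2 and Fads2 kept their calls in 18 and Scd1 in 16. Without a filter, and with the replicate number as a block, Npc1 lost its call (block: 9 higher and 6 lower, edgeR adjusted p = 0.149 for Npc1). Same-numbered libraries did not deviate together (correlations -0.0418, 0.0264, -0.101 and -0.0178), and best matches were other numbers in 4 of 4. Whether they were paired in culture is not stated, and correlations from 4 libraries per group cannot decide it. In the block fit no transcript was called (0 higher, 0 lower; adjusted p = 0.0969 for Scd1-201 and 0.134 for Fads2-201), where 3 were higher without corticosterone replicate 1, 2 without replicate 3, and 2 lower in the 6 libraries. Over the 8 fits that leave out 1 library, higher transcripts ranged from 1 to 3.

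With library totals alone, 5 of the 38 were higher and 10 lower: Elovl1, Elovl5, Me1, Npc1 and Soat1 lost and Acaca, Pmvk, Scap and Sqle gained a call. With limma-trend on recomputed TPM (pseudocount 1, then 0.1), 377 and 385 genes were higher and 815 and 802 lower; of the 38, 1 and 1 were higher and 1 and 1 lower; of the lists, 5 and 4 were higher and 6 and 6 lower, against 37 and 23 by counts. An alternative chosen after seeing the data, limma-trend on length-corrected levels (pseudocount 0.1), gave 1107 genes higher and 747 lower, 59.7% of calls higher. Its median log2 fold change over all genes was 0.0665. There 2 of the 38 were higher (Acss2, Scd1) and 1 lower (Fads2), and 14 list genes were higher and 6 lower. The cause of these differences between fits was not tested.

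The sign of the log2 fold change turned for small values. On recomputed TPM with pseudocounts 1 and 0.1 the values were -0.081 and -0.084 for Fdps, -0.20 and -0.23 for Elovl6, -0.14 and -0.14 for Elovl1, -0.22 and -0.22 for Mvk, -0.12 and -0.13 for Mvd, -0.045 and -0.046 for Elovl5, -0.090 and -0.092 for Me1, -0.15 and -0.15 for Acly, -0.16 and -0.16 for Fasn, -0.095 and -0.11 for Npc1, -0.092 and -0.093 for Scd2, 0.41 and 0.43 for Ebp, -0.16 and -0.18 for Nsdhl, -0.039 and -0.040 for Hadh, and -0.082 and -0.084 for Etfdh, beside all-gene medians of -0.152 and -0.185. In the added alternative they were 0.093 for Pmvk, 0.22 for Cyp51, 0.091 for Dhcr7, 0.18 for Npc2, 0.12 for Fdft1, 0.69 for Ebp, 0.13 for Fads3 and 0.15 for Acsl1. In the 6 libraries, then with a term for the kind of effective length, they were 0.071 and 0.057 for Hsd17b7, -0.029 and -0.034 for Fdps, -0.0092 and -0.013 for Fasn, and -0.012 and -0.012 for Nsdhl. Hsd17b7 was 0.0042 with DESeq2 and ranged from -0.062 to 0.027 with 1 library left out; Cyp51 ranged from -0.085 to 0.0027.

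The ratios kept their sign in the 6 libraries, at -0.21 for Insig1 over Insig2, 0.63 for Scd1 over Scd2 and -0.051 for Srebf1 over Srebf2 (exact permutation p = 0.1333, the smallest 2 against 4 allows). With 1 library left out they ranged from -0.26 to -0.22, from 0.60 to 0.64 and from -0.075 to -0.047 (exact permutation p = 0.05714, the smallest 3 against 4 allows). By levels per length over all 8 libraries, Insig1 over Insig2 was -0.66 and Scd1 over Scd2 0.44 (exact permutation p = 0.02857 each). The Insig value rests in part on the high Insig2 level per length of corticosterone replicate 2. Srebf1 over Srebf2 was -0.040 (exact permutation p = 0.5714) and Npc1 over Npc2 -0.025. By deposited TPM, Scd2 made up 13.9% of the summed level of the 38 genes with corticosterone, beside 12.6%. With the upstream 250 bases alone, CCAAT was in 26 windows, CACGTG in 6, GGGCGG in 29 and AGAACA in 7.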

Other observations

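Lipid genes next to the synthesis routes were described from the other 4 lists. In 11 genes of fatty acid uptake and activation, 3 were higher and 4 lower with corticosterone (63.6% called, beside 40.1% of all genes; median log2 fold change -0.094). Fabp4, a fatty acid carrier of capillary endothelium and adipocytes, had 23.7, 23.9, 21.8 and 22.4 CPM with corticosterone, against 5.17, 4.89, 5.73 and 5.99 CPM in medium, 4.22-fold (log2 fold change 2.08 ± 0.069 SE, edgeR adjusted p = 1.86e-10), while adipocyte markers summed to at most 0.521 CPM with corticosterone and 0.571 CPM in medium. Acsl4, which activates arachidonate, had 106, 105, 103.3 and 104.5 CPM with corticosterone, against 68.8, 69.2, 73.3 and 74.5 CPM in medium, 1.46-fold (edgeR adjusted p = 1.63e-08). Slc27a1, a fatty acid transporter, fell to 0.663 of medium (9.68 ± 1.10 CPM with corticosterone and 14.6 ± 1.17 CPM in medium, SD, n = 4, edgeR adjusted p = 0.000122), and Acsl1 to 0.832 of medium (edgeR adjusted p = 0.00504), though Acsl1 is positive with limma-trend on length-corrected levels (0.15). Of 21 oxidation genes, 9 were higher and 4 lower (61.9% called; median 0.070); the 4 became 2 without medium replicate 2 and without medium replicate 4, and the 9 became 5 with a term for the kind of effective length. Hadh rose 1.17-fold (edgeR adjusted p = 8.59e-05) and Etfdh 1.11-fold (edgeR adjusted p = 0.000691) by counts, though not on recomputed TPM, while Acads fell to 0.855 (edgeR adjusted p = 6.66e-05) and Etfa to 0.897 of medium (edgeR adjusted p = 0.00204).

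Among 18 other genes of cholesterol trafficking and oxysterols, 8 were higher and 5 lower (72.2% called, beside 40.1% of all genes, median 0.086). The difference between these shares was not tested. Stard5, a sterol-binding protein, had 18.1, 17.5, 17.8 and 18.3 CPM with corticosterone, against 9.87, 9.61, 9.05 and 9.56 CPM in medium, 1.88-fold (edgeR adjusted p = 1.44e-08; 0.0617 with limma on recomputed TPM). Lipa, the lysosomal acid lipase that frees cholesterol from its esters, had 168, 174, 167 and 158 CPM with corticosterone, against 107, 108, 100.1 and 105 CPM in medium, 1.58-fold (edgeR adjusted p = 9.07e-09; 0.49 with limma on recomputed TPM). Nceh1, a neutral cholesterol ester hydrolase, fell to 0.745 (edgeR adjusted p = 2.88e-06) and Osbpl5, an oxysterol-binding protein relative, to 0.790 of medium (edgeR adjusted p = 8.25e-07). Of 12 genes of liver X receptors and cholesterol export, 3 were higher and 3 lower (50% called, again beside 40.1%, median -0.0017). The transporters Abcg1 and Abca7 rose 1.254-fold and 1.246-fold (edgeR adjusted p = 0.000163 and 2.6e-05). Arl4c, a small GTPase known as a liver X receptor target, had 38.8, 35.2, 38.6 and 39.0 CPM with corticosterone, against 63.7, 61.6, 64.0 and 65.6 CPM in medium, 0.595 of medium (edgeR adjusted p = 9.65e-09), and the receptor partner Rxra fell to 0.855 (edgeR adjusted p = 2.64e-05).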
